A study of Mus musculus with 6 samples.

Results

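Chromatin accessibility was measured by ATAC-seq, a method that marks open DNA by insertion of a transposase, in freshly isolated muscle stem cells (MuSCs) from control and Taf4a sKO mice, to ask where it depends on the promoter factor TAF4A. Core promoter peaks were those annotated to a protein-coding gene with the peak centre at most 500 bp from the transcription start site (TSS) of that gene. Of the 75412 peaks in the mouse genome build mm10, 10559 (14%) met this rule, and they lay at 10543 genes, 16 of which carried 2 such peaks. The rule uses annotation and position only, and no accessibility value.

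Each genotype was represented by 3 libraries of C57BL/6 mice. In Taf4a sKO animals a tamoxifen-inducible Cre driven from the Pax7 locus deletes a pair of exons of both floxed Taf4a alleles, so recombination is limited to cells that express Pax7. Controls, titled WT in the labels, were littermates with both Taf4a alleles floxed, with or without the Pax7-driven Cre, so both groups carry the floxed alleles. The study names tamoxifen treatment in its description of Taf4a sKO animals and not in that of controls. If controls went without it, tamoxifen and the deletion cannot be told apart. Animals were adult and of both sexes, and MuSCs were sorted by surface antigens or by a Pax7 reporter.

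The core promoter is the stretch of DNA around the TSS on which RNA polymerase II and the general transcription factors assemble. TFIID, the complex that recognises it, consists of the TATA-binding protein and the TBP-associated factors, one of which is TAF4A (gene symbol Taf4 in the annotation). Many mouse promoters lie in CpG islands and are accessible in most cell types, including promoters of genes that are not transcribed, whereas promoters poor in CpG are more often open in particular cell types only.

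The 150 bases upstream of the TSS are shown for 8 promoters, on the sense strand of the gene and from the mm10 genome sequence (RefSeq GRCm38.p6). They were picked after their values were seen. Pcdh15 and Slc24a2 are among the promoters that fell most, Abcb9 is a strong promoter that fell, Apol10b, Cxcl3 and Cxcl1 rose, Hivep2 had the widest peak, and Kansl2 encodes the subunit of the non-specific lethal (NSL) complex on which the study centred. Capitals mark matches, on either strand, to the motifs described further on.
Pcdh15 (chr10:73099192-73099341, plus strand): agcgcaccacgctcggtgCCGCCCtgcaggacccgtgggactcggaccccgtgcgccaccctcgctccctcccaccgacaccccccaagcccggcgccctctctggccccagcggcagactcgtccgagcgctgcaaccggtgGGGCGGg
Slc24a2 (chr4:87230478-87230627, minus strand): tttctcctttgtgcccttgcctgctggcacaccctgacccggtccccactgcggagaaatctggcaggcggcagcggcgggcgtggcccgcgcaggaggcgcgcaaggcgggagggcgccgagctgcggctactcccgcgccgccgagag
Abcb9 (chr5:124095799-124095948, minus strand): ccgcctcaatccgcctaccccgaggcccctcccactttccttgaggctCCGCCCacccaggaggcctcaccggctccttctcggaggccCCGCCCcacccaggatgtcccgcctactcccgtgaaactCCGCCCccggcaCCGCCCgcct
Apol10b (chr15:77596126-77596275, minus strand): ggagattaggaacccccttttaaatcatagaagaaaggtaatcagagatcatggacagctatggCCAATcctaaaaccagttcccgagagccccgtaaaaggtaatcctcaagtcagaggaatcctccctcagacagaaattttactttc
Cxcl3 (chr5:90785953-90786102, plus strand): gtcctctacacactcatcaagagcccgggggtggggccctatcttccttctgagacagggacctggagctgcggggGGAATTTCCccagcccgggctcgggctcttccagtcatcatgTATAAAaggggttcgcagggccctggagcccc
Cxcl1 (chr5:90891091-90891240, plus strand): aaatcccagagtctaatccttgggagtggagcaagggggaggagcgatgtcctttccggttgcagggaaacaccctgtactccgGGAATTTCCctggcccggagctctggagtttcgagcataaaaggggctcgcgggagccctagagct
Hivep2 (chr10:13965925-13966074, plus strand): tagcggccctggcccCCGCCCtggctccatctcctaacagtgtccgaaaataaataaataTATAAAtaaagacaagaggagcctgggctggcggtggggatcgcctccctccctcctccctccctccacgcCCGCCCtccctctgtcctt
Kansl2 (chr15:98534265-98534414, minus strand): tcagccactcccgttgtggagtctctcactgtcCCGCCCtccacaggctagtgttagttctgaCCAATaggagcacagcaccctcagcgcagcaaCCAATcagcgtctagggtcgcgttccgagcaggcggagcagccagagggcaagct

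These stretches differ in base composition. Of 150 bases, 115 were G or C in Pcdh15 and 110 in Slc24a2, each with 18 CpG dinucleotides, against 65 in Apol10b with 2 CpG. The neighbouring chemokine genes Cxcl3 and Cxcl1 held the same 9 bases, GGAATTTCC, starting 74 and 66 bases before the TSS. Kansl2 held 2 CCAAT boxes, starting 87 and 55 bases before its TSS, and 1 GC box on the opposite strand.

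Core promoters were wide, strong peaks, and nearly all of them covered the start site they were assigned to. The peak centre lay at a median of 132 bp from the TSS, with quartiles of 62 and 239 bp, and 10260 peaks (97.2%) contained it. Of the 14221 protein-coding genes with any annotated peak, 74.1% had a core promoter peak. The 57 peaks at 490 to 500 bp had a median value of 1700 and a median width of 1515 bp, and the 57 protein-coding peaks from there to 510 bp had 1299 and 1385 bp.

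The median width of a core promoter peak was 1104 bp, with the central 90% between 449 and 1848 bp, against 522 bp for all other peaks. Values are given as the deposited normalised read numbers in a peak, averaged over the 6 libraries where no library is named. The median value of core promoters was 1316, with the central 90% between 105.5 and 3818, and that of all other peaks was 158.5. Per kb of peak the medians were 1160 and 307.4, so core promoters were also denser in signal. Core promoters made up 23.1% of the bases covered by the tested peaks. Their signal was unevenly spread, since the strongest decile held 26.6% of it and the weaker 50% of promoters, that is those below the median, held 20.2%. Across core promoters, width and value were related (Pearson's r = 0.608, Spearman's rho = 0.641, n = 10557 promoters). These promoters share libraries and are not independent replicates.

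The 5 strongest and the 5 widest core promoters, which shared Hivep2, did not differ detectably between genotypes under the authors' normalisation. Klf10, a zinc finger factor induced by TGF-beta, had values of 9732, 8482 and 11018 in control and 10565, 9242 and 9042 in Taf4a sKO libraries. Hivep2, which encodes a large zinc finger protein, combined the second highest mean value with the widest peak, 3604 bp, and gave 9565, 8465 and 10650 against 10250, 9215 and 9101. The genotypes overlapped at both promoters, with limma log2 fold changes of -0.01 (adjusted p = 0.929) and 0.00 (adjusted p = 0.992). Jun, Sp1 and Tlcd2 followed by value, with log2 fold changes of -0.04, 0.10 and 0.15. Nfil3, Dusp4, Znf703 and Sox12 followed by width, with 3442, 3438, 3435 and 3203 bp. Per kb of peak Sp1, which encodes the factor that binds GC boxes, had a level of 5171, above Klf10 with 3654 and Hivep2 with 2647. None of these 9 promoters passed the test between genotypes (limma, adjusted p between 0.165 and 0.992), and with TMM scaling, explained with the test below, Hivep2, Klf10 and Sox12 were called slightly lower, with log2 fold changes of -0.11, -0.13 and -0.12.

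Library by library, the summed value of the core promoters came to 15683801, 14386412 and 17329149 in control and 17141985, 16280349 and 16245810 in Taf4a sKO MuSCs. The lowest and the highest total both belonged to control libraries. The median core promoter value was 1285, 1188 and 1401 in control and 1356, 1332 and 1330 in Taf4a sKO libraries. No core promoter peak had a value of 0 in any library. The log2 values of core promoters correlated with r of 0.994 to 0.996 within control, 0.995 to 0.996 within Taf4a sKO and 0.981 to 0.982 across genotypes, while the other peaks reached 0.899 to 0.915 between genotypes. The median coefficient of variation of a core promoter was 9.53% over control and 4.56% over Taf4a sKO libraries.

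Relative to the rest of the accessible genome, core promoters carried less of the signal in Taf4a sKO MuSCs. Their share of the summed value of all peaks was 41.6%, 40.8% and 40.5% in control and 38.7%, 39.1% and 38.7% in Taf4a sKO libraries. The groups did not overlap, and the means were 40.97 ± 0.557% (SD, n = 3) and 38.83 ± 0.215% (SD, n = 3), a difference of -2.14 percentage points (two-sided exact permutation test, p = 0.1, which is the lowest value possible with 3 libraries per genotype). The difference lay between -1.83 and -2.38 percentage points when any single library was left out. The share depends on both sides of the ratio and does not say whether core promoters or other peaks changed.

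Counting each peak equally gave a difference in the same direction. The mean log2(value + 1) of core promoters exceeded that of all other peaks by 2.63, 2.54 and 2.54 in control and by 2.49, 2.53 and 2.50 in Taf4a sKO libraries. The difference between genotypes was -0.06 (means 2.57 ± 0.05 and 2.51 ± 0.02, SD, n = 3 each), again with no overlap and the smallest possible p (two-sided exact permutation test, p = 0.1). Without control replicate 1, which had the highest value, the difference was -0.03.

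**Figure D1:**
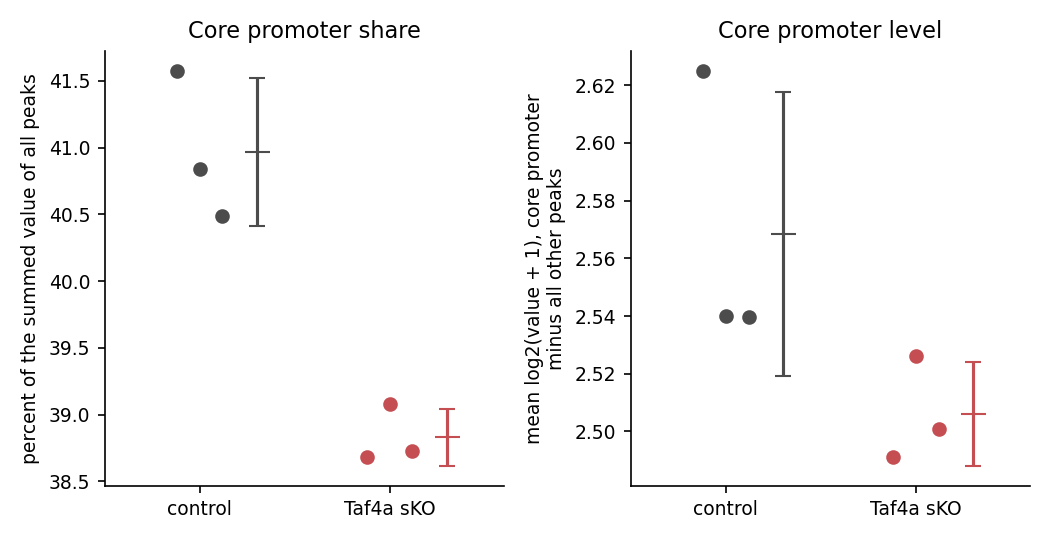
Core promoter share of the summed value of all peaks, in percent (left), and the mean log2(value + 1) of core promoters minus that of all other peaks (right), for the 3 control and 3 Taf4a sKO libraries; points are libraries, and the bar beside them gives mean and SD, with axes that do not start at 0. All 3 Taf4a sKO libraries lie below all 3 control libraries in both panels.

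Each core promoter was then compared between genotypes with limma on log2(value + 1), in a fit over all 75384 peaks with a mean value above 10 and with Benjamini-Hochberg adjustment over all of them. Of the 10559 core promoters, 10557 were tested. The other two were a peak of Gm13420, with 11, 15 and 6 in control and 4, 7 and 9 in Taf4a sKO libraries, and 1 of the 2 peaks of Fam83b, with 8, 19 and 10 against 10, 5 and 6.

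Most core promoters changed little. The log2 fold changes of Taf4a sKO over control had a median of 0.06 and an SD of 0.28, against an SD of 0.72 over all other peaks, and 94.8% of core promoters lay within 1.5-fold of no change, against 64.4% of the other peaks. At an adjusted p under 0.05 (limma), 957 core promoters (9.07%) were higher, where 28.0% of all tested peaks were, and 536 (5.08%) were lower, where 13.9% of all were. Every Taf4a sKO value lay above every control value at 17.8% of core promoters and at 32.3% of all tested peaks, and below at 10.2% and 18.0%. The median standard error of the log2 fold change was 0.11 at core promoters and 0.17 at other peaks. Protein-coding peaks more than 500 bp from the TSS lay in between, with 25% higher, 13.5% lower and an SD of 0.61.

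The split between higher and lower core promoters depended on the scaling. Under the authors' normalisation 64.1% of the called core promoters were higher. With TMM factors (trimmed mean of M values), which lowered the median of all peaks from 0.11 to -0.01 on the log2 scale, the median of core promoters became -0.05 and the split 29.3%, with 961 higher and 2324 lower. Scaling to the total value over all peaks gave 17.9%, and quantile normalization 18.7%, with 3528 and 3729 of the 10557 core promoters lower. Over all 75384 tested peaks, lower calls rose from 10476 to 16803 with TMM, 19464 with total-value scaling and 18897 with quantile normalization. Lower calls were thus clearly rarer at core promoters than over all tested peaks only under the authors' normalisation. Of the calls under the authors' normalisation, 674 of the 957 higher (70.4%) and 533 of the 536 lower (99.4%) were also called under the other 3 scalings, and no core promoter was called in opposite directions by the authors' normalisation and TMM. Single libraries mattered too. Without control replicate 3, the library with the highest control total, 2845 core promoters were higher. Without control replicate 1 or 2 or Taf4a sKO replicate 1 or 3 the number was 628, 638, 621 and 611, and without Taf4a sKO replicate 2 only 349 were lower. In every scaling and in every fit with a library left out, 460 promoters were called higher and 281 lower.

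**Figure D2:**
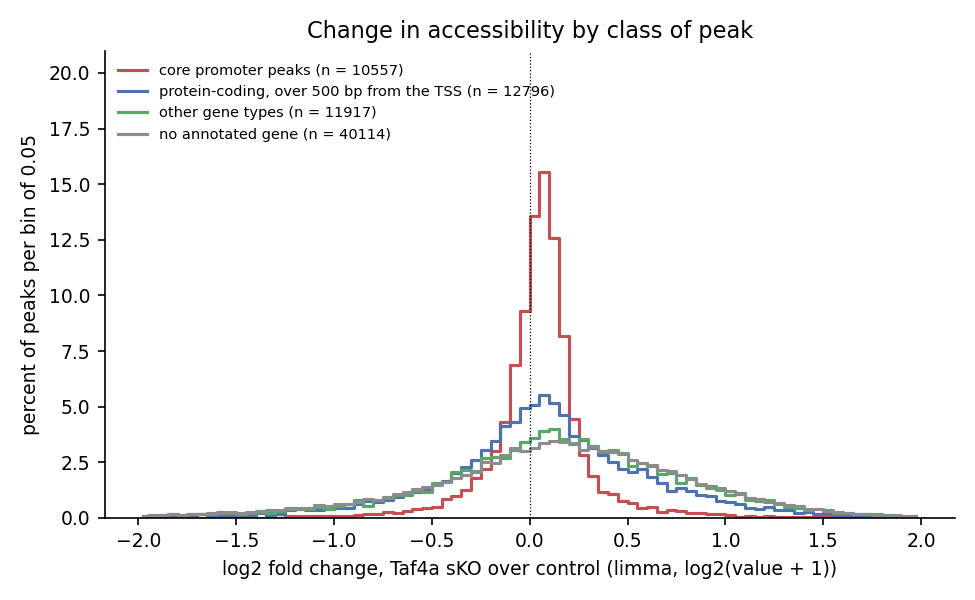
Distribution of limma log2 fold changes (Taf4a sKO over control) of the tested peaks by class, as the percent of peaks of the class per bin of 0.05, with the range cut at 2 in either direction. The core promoter curve, with an SD of 0.28, is narrow and centred on 0.06, while peaks without an annotated gene spread with an SD of 0.75.

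A 2-fold threshold on the group means was passed by few core promoters. With a log2 ratio beyond 1 in either direction and a pseudocount of 1, 69 core promoters were gained (0.654%, against 7.03% of all tested peaks) and 84 were lost (0.796%, against 5.36%). This threshold holds no test. All 69 gained promoters and 82 of the 84 lost ones were also called by limma at an adjusted p under 0.05. The genotypes did not overlap at 69 and 80 of them. Threshold, call and overlap use the same values, so promoters picked for a large ratio tend to pass all of them. This agreement is therefore no separate evidence. The 2 lost promoters that limma did not call varied widely within a genotype. Tacr1, which encodes the substance P receptor, had 142, 160 and 799 in control against 330, 70 and 90, and Zfp984 had 21, 31 and 1 against 1, 4 and 8. Without control replicate 3, 106 promoters were gained. With TMM 50 were gained and 102 lost, and with total-value scaling 47 and 111, so the near balance rested on the authors' normalisation. Gained and lost promoters were weak peaks, with median values of 130.7 and 80.5, and of all 153 only Abcb9 reached the median value of the class.

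**Figure D3:**
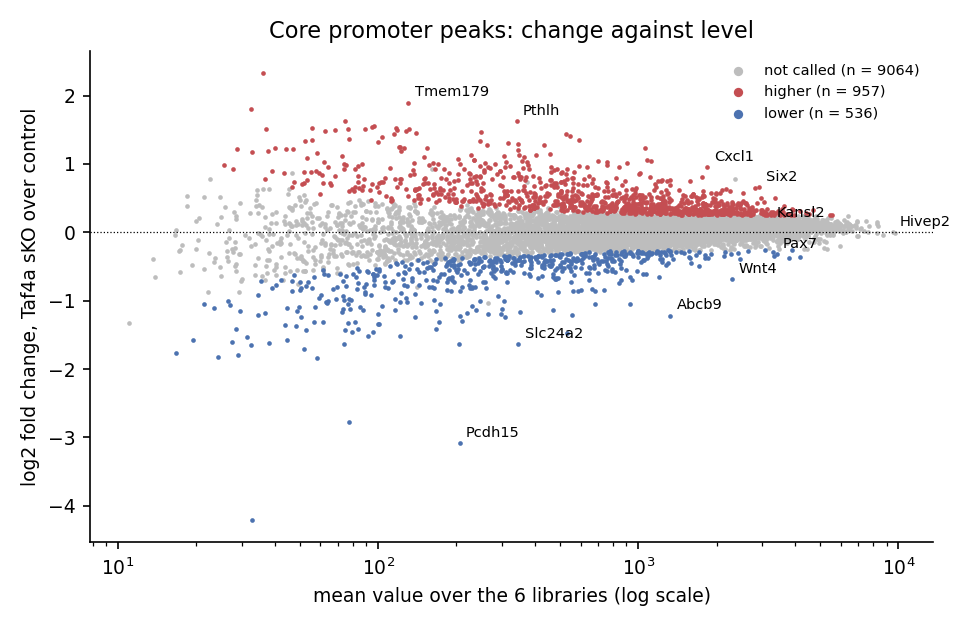
Limma log2 fold change (Taf4a sKO over control) against the mean value over the 6 libraries on a log scale, with 1 point per tested core promoter, coloured by the call at an adjusted p under 0.05. The spread narrows from left to right, 957 promoters were higher and 536 lower, and Pcdh15 lies lowest among promoters with a mean value of at least 50.

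Among the lower promoters with a mean value of at least 50, the largest decrease was at Pcdh15, which encodes protocadherin 15, a cadherin known from the tip links of sensory hair cells. Its peak, chr10:73098937-73100225, had values of 377, 345 and 383 in control and 49, 33 and 48 in Taf4a sKO MuSCs. The change was 8.45-fold on the log2(value + 1) scale (limma, log2 value -3.08 with a standard error of 0.18, adjusted p = 5.85e-11). The genotypes were far apart in comparison with their spread, with 368.3 ± 20.4 (SD, n = 3) and 43.3 ± 8.96 (SD, n = 3). Qrfprl followed, with 94, 80 and 235 against 26, 18 and 10, a log2 fold change of -2.78 in which the highest control library alone was far above the other two. Slc24a2, a sodium, potassium and calcium exchanger, gave 568, 464 and 540 against 160, 178 and 165, a change of -1.63 on the log2 scale (limma adjusted p = 9.13e-09). A still larger change was found below this level, at Krtap1-3, a keratin-associated protein gene with a mean value of 32.7, where 71, 64 and 53 stood against 4, 3 and 1. Krtap1-3, whose peak did not reach its TSS, lies outside the rule for named promoters and was added after its values were seen.

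The other promoters among the 12 lowest had log2 fold changes between -1.84 and -1.46. Sla, the gene of an adaptor protein of lymphocyte receptor signalling, gave 89, 79 and 70 against 18, 26 and 28. Synpo2l, which encodes an actin-binding protein of the sarcomeric Z-disc, gave 132, 138 and 131 against 68, 30 and 48. Galnt9, a glycosyltransferase, gave 118, 110 and 122 against 51, 36 and 40. At each of these promoters the lowest control value was above the highest Taf4a sKO value. Fdft1, the gene of squalene synthase, gave 197, 205 and 138 against 75, 41 and 74, at a peak of 208 bp that did not reach the annotated TSS. Lonrf2 gave 150, 127 and 143 against 42, 56 and 53.

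Gm19668, Gm2696, Gm18596 and Gm19402, also among the 12 lowest, are neighbours. Together with Gm7137 they formed a run of 5 core promoters on chromosome 10, from 77690126 to 77815030, with no other core promoter peak between them, and all 5 were lower and lost. Gm19402 was the strongest, with 839, 733 and 769 in control and 346, 218 and 295 in Taf4a sKO libraries, and Gm18596 had 315, 296 and 301 against 154, 71 and 85. In each of the 5, Taf4a sKO replicate 1 had the highest Taf4a sKO value, still below every control value. The authors discarded multi-mapping reads, so clustered genes with similar copies may be measured only in part.

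The largest increases with a mean value of at least 50 were found at weak peaks. Tmem179 gave 39, 70 and 59 in control and 205, 201 and 210 in Taf4a sKO MuSCs, 3.72-fold on the log2(value + 1) scale (limma, log2 value 1.90 with a standard error of 0.20, adjusted p = 1.57e-07), at a peak that did not reach its TSS. Pthlh, which encodes parathyroid hormone-related protein, gave 143, 163 and 188 against 491, 403 and 658. Sp7, the osteoblast transcription factor osterix, gave 51, 45 and 49 against 139, 136 and 157. All 3 promoters were separated by genotype with a wide gap. Apol10b, of the apolipoprotein L family, gave 35, 35 and 38 against 124, 103 and 114. Irx4, a homeobox gene, gave 26, 37 and 22 against 71, 78 and 99, and Nr1h4, the bile acid receptor, 39, 28 and 38 against 115, 111 and 77. The other promoters among the 12 highest were those of Phf11, Cxcl3, Trim6, Tmem219, Slfn8 and Gpr146, with log2 fold changes between 1.49 and 1.53. The peak of Gpr146 did not reach its TSS. All 24 promoters with the largest changes at a mean value of at least 50 were called in the same direction in every scaling and in every fit with 1 library left out. A still larger increase was found below this level, at Pate1, with a mean value of 36.2 and a log2 fold change of 2.33. It gave 15, 5 and 17 in control against 67, 47 and 66, lies outside the rule for named promoters and was added after its values were seen.

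Several altered promoters lay close to each other, in a search for gained or lost promoters within 500000 bp of each other that was made after the values were seen and gave 9 groups. The CXC chemokine genes Cxcl3, Cxcl1 and Cxcl2 lay from 90785664 to 90903976 on chromosome 5, and all 3 core promoters there were higher. Cxcl3 gave 64, 55 and 62 in control and 164, 170 and 190 in Taf4a sKO libraries, Cxcl1 gave 1371, 1283 and 1102 against 2763, 2319 and 2221, and Cxcl2 gave 239, 251 and 265 against 550, 652 and 639. Thus the neighbours differed widely in level, and each was separated by genotype. On chromosome 15, Apol9a, Apol10b and Apol9b were the only core promoter peaks between 77410668 and 77729688, and all 3 were gained. The peak of Apol9a did not reach its TSS. On chromosome 9 the phospholipid scramblase genes Plscr1 and Plscr2 were both gained, with 632, 569 and 712 against 1585, 1444 and 1445 for Plscr1 and 57, 60 and 51 against 179, 155 and 117 for Plscr2. The other groups were pairs. Hpse2 and Cnnm1 on chromosome 19 and Lrrc26 and Grin1 on chromosome 2 were lost, with no core promoter between them. The peak of Lrrc26 did not reach its TSS. Ifi47 and Olfr1381 on chromosome 11 and Cdsn and Ddr1 on chromosome 17 were gained, but each pair spanned 4 core promoters of which the other two were not called. On chromosome 7 the directions were mixed, since Tmem219 was gained and a gene without a symbol was lost among 9 core promoters, 2 of them higher and 2 lower. Within 2000000 bp of the Taf4 promoter, 5 of 39 core promoters were higher and 4 lower, with a median log2 fold change of 0.04, where 9.07% of all core promoters were higher and 5.08% lower, with a median of 0.06.

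Among promoters at or above the median value of 1316, the balance of calls depended on the scaling. Of these 5280 promoters, limma called 286 higher and 33 lower under the authors' normalisation, of which 277 and 28 had separated genotypes, but 365 higher and 858 lower with TMM. Abcb9, which encodes a lysosomal peptide transporter, changed most, from 1876, 1705 and 1994 in control to 848, 754 and 790 in Taf4a sKO MuSCs, 2.33-fold lower on the log2(value + 1) scale (limma, log2 value -1.22 with a standard error of 0.11, adjusted p = 1.17e-08). Wnt4, a Wnt ligand, fell from 2899, 2705 and 2884 to 1699, 1710 and 1855. At both the lowest control value lay well above the highest Taf4a sKO value. Cdh2, the gene of N-cadherin, gave 1699, 1919 and 2425 against 1406, 1472 and 1374, and B3gnt9, a glycosyltransferase, 1787, 1634 and 2073 against 1458, 1332 and 1241. Kif21b and Fbxo44 had log2 fold changes of -0.38 each and were not called in every scaling and every fit with a library left out.

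The 6 largest increases among these strong promoters were at genes of different roles. Cxcl1, a neutrophil-attracting chemokine, had the largest of them (limma, log2 value 0.96 with a standard error of 0.11, adjusted p = 5.63e-07). Il6ra, the alpha chain of the interleukin 6 receptor, rose from 1238, 1163 and 1451 to 2261, 2176 and 2279. Lox, which encodes the collagen cross-linking enzyme lysyl oxidase, rose from 1168, 973 and 1415 to 1939, 1975 and 1979. In all of these the genotypes were separated, and the Taf4a sKO libraries lay closer together than the control libraries at Il6ra and Lox. Six2, a homeobox transcription factor gene, gave 2267, 2076 and 2459 against 3830, 3401 and 3476, Kcnt2, a potassium channel gene, gave 946, 979 and 1013 against 1814, 1544 and 1633, and Sema5a, a semaphorin gene, gave 984, 946 and 1121 against 1704, 1588 and 1622.

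**Figure D4:**
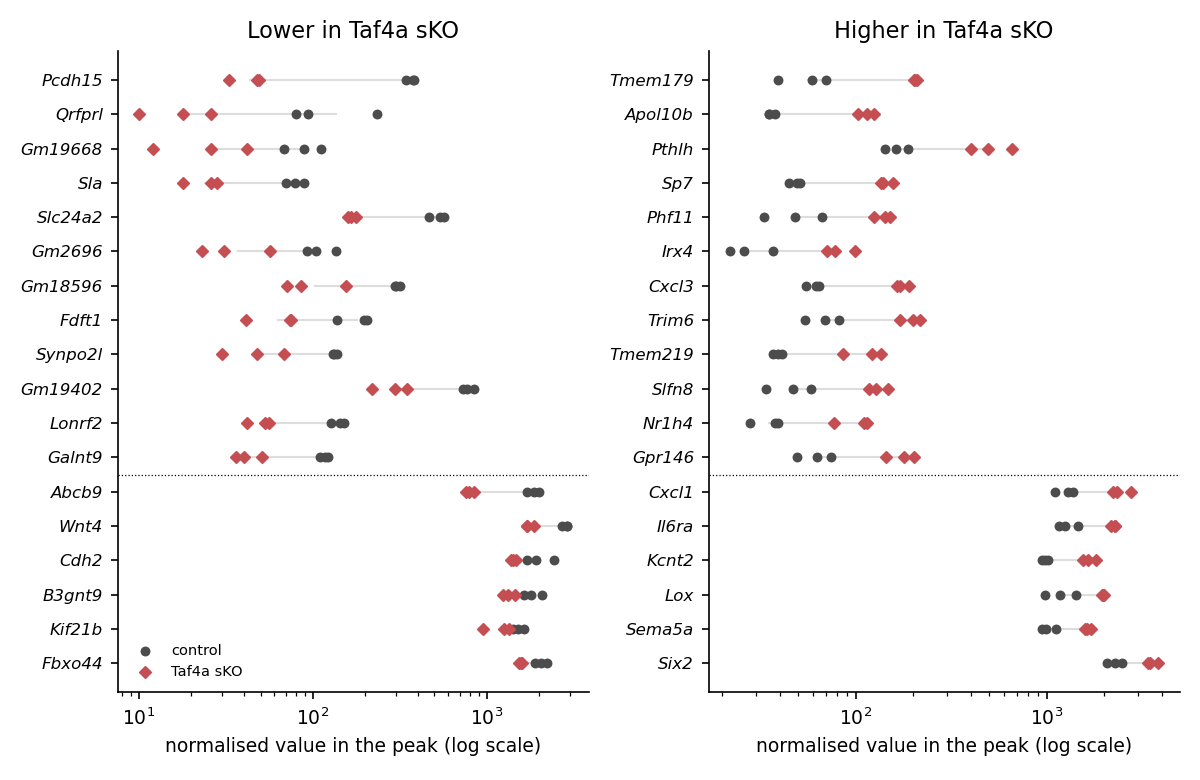
Normalised values in each library, on a log scale, at the core promoters with the largest changes, with control libraries as grey circles, Taf4a sKO libraries as red diamonds and a line between the group means. Above the dotted line are the 12 lowest and 12 highest log2 fold changes among promoters with a mean value of at least 50, and below it the 6 of each direction among those at or above the median of 1316; the genotypes do not overlap in any of them, as the rule for naming them requires.

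The targeted gene, its partners and other gene lists are given beside all core promoters, of which 14.1% were called in either direction under the authors' normalisation and 31.1% with TMM. The Taf4 promoter lies outside the deleted exons and therefore checks nothing of the deletion, and its peak gave 2305, 1998 and 2375 in control and 2095, 2124 and 2104 in Taf4a sKO libraries (limma, log2 value -0.07 with a standard error of 0.10, adjusted p = 0.592). With TMM scaling the promoter of Taf4 was at -0.19, past the threshold (limma adjusted p = 0.00994), and it was also called lower with total-value scaling and quantile normalization (limma adjusted p = 0.00203 and 0.00208). Kansl2 gave 3081, 2741 and 3416 against 3485, 3276 and 3320 (limma log2 fold change 0.13, adjusted p = 0.323), with overlapping genotypes. The promoter of Kansl2 was at 0.05 without control replicate 2, and without control replicate 3 it was called higher, at 0.21 (limma adjusted p = 0.0304). Of the 16 TFIID subunit genes listed, 12 had a core promoter peak and only Taf5 was lower (log2 fold change -0.30), while 4 were lower with TMM, beside 5.08% and 22.0% of all core promoters that were lower under these scalings. Of the 9 NSL complex genes, 8 had one, and Ogt, the O-GlcNAc transferase, was higher (log2 fold change 0.35), and with TMM 1 was higher and 1 lower. Taf5 and Ogt were not called in every scaling and every fit with a library left out. Of 7 genes of NF-Y and Sp factors and 23 of heterochromatin factors, 4 and 14 had a core promoter peak, and none of these was called (limma, 0 also at an unadjusted p under 0.05 and 0 with TMM). With total-value scaling, however, the promoter of Nfya turned from 0.079 to -0.069 and was called lower.

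Of 63 core promoter peaks of cytosolic ribosomal proteins, 1 was higher, that of Rps14 (log2 fold change 0.49), and none lower, and of 28 proteasome promoters none was called (limma, 4 at an unadjusted p under 0.05, 1 higher and 1 lower with TMM). Among 58 promoters of the respiratory chain, Cox7a1 was higher (0.70) and Cox6b2 (-0.83) and Cox8b (-1.04) were lower. Cox7a1 and Cox8b encode cytochrome oxidase subunits of striated muscle, and Cox6b2 one of testis. With TMM scaling 5 ribosomal protein and 12 respiratory chain promoters were lower. Of 39 promoters of DNA replication and cell cycle genes, Mcm6 and Rrm1 were higher and Ccne2 was lower (log2 fold changes 0.37, 0.31 and -0.32), and with TMM 2 were higher and 11 lower. Rps14, Rrm1 and Ccne2 were not called in every scaling and every fit with a library left out. Median log2 fold changes were 0.09 for ribosomal protein, 0.08 for proteasome, 0.03 for respiratory chain and 0.01 for replication promoters, beside 0.06 for all core promoters. With TMM each of these became negative, as did the median of all core promoters.

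Among myogenic and stem cell genes, promoters were called in both directions. Myog, the differentiation factor myogenin, gave 282, 297 and 224 in control and 160, 143 and 137 in Taf4a sKO MuSCs (log2 fold change -0.86). Pax3 rose from 700, 757 and 856 to 1028, 1111 and 1081, and Myod1, the determination factor, from 1591, 1710 and 1866 to 2302, 1949 and 2076. Together with Msc, which encodes musculin, 3 of the 10 myogenic factor promoters were higher and 1 was lower, with a median of 0.17, and with TMM 3 were higher and 2 lower. Pax7, the factor that defines MuSCs, gave 4533, 3128 and 3729 against 3084, 2923 and 3026, with no overlap, though the lowest control value was close to the highest Taf4a sKO value (limma, log2 value -0.32 with a standard error of 0.12, adjusted p = 0.0302). The promoter of Pax7 was called lower in all 4 scalings, but with a library left out only in the fit without control replicate 2, and without control replicate 1 its log2 fold change was -0.18. The calls of Msc and Myod1 did not hold in every scaling and every fit with a library left out. Among 18 promoters of quiescence regulators, Cdkn1c, a cyclin-dependent kinase inhibitor, and Tenm4 were higher (0.35 and 0.59) and Pax7 was lower, a share of 16.7% called beside 14.1% of all core promoters, whereas with TMM 2 were higher and 6 lower. The promoters of 12 sarcomere genes split evenly, with Neb and Actn2 higher (0.61 and 0.30) and Mybpc1 and Tnnt2 lower (-0.93 and -1.57), and with TMM 1 was higher and 5 lower. Likewise Cdkn1c, Tenm4 and Actn2 were not called in every scaling and every fit with a library left out.

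Of 17 promoters of immediate early genes, Maff was higher (0.73) and Btg2 (-0.37) and Junb (-0.26) were lower, and with TMM 8 were lower. The peak of Maff did not reach its TSS. At Junb the genotypes overlapped, with 3537, 2918 and 3597 in control and 3011, 2730 and 2614 in Taf4a sKO libraries, and the adjusted p was close to the threshold (limma, 0.0484). Junb and Eda2r were not called in every scaling and every fit with a library left out. Btg2, an antiproliferative gene that p53 also induces, gave 4357, 3796 and 4703 in control and 3430, 3260 and 3227 in Taf4a sKO libraries. Of 17 promoters of p53 targets, Fas, the death receptor, and Eda2r were higher (0.57 and 0.32) and none was lower, though 5 were with TMM. Fas gave 2016, 1907 and 2193 against 3314, 2894 and 2885. Its genotypes were well apart. Among 54 chaperone and heat shock promoters 5 were higher and 3 lower, with Hspb8 (1.03) and Hspb3 (0.81), small heat shock proteins, and Dnajc25 (-0.80) at the extremes, and the name pattern behind this list also took in Hspg2, the basement membrane proteoglycan perlecan. With TMM 15 of these 54 were lower.

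The shares called in the collagen and laminin, Hox, histone, Zfp and chromosome X lists lay between 10.8% for chromosome X and 19.4% for collagens and laminins, beside 14.1% of all core promoters. Of 31 collagen and laminin promoters, 5 were higher, among them Col22a1 (0.93), Col12a1 (0.49) and Col15a1 (0.44), and Lamc3 was lower (-0.99), and with TMM 5 were higher and 5 lower. Of 23 Hox promoters, Hoxa6, Hoxa5 and Hoxb9 were higher (0.76, 0.37 and 0.44) and none was lower, though with TMM 7 were, and Hoxb9 was not called in every scaling and every fit with a library left out. Among 40 histone promoters, 4 were higher and 2 lower, with H1f10, a linker histone gene, at -0.55, and with TMM 1 was higher and 11 lower. Histone genes include near-identical copies, which may be measured only in part because multi-mapping reads were discarded. Of 193 promoters of genes with Zfp symbols 16 were higher and 9 lower, against 13 and 38 with TMM. On chromosome X, 28 of 334 were higher and 8 lower, against 24 and 48 with TMM, and no core promoter peak lay on chromosome Y. Of 22 germline genes only Zpbp2 had a core promoter peak, and it was not called (limma log2 fold change 0.01).

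Markers of other cells that a muscle sort could hold were examined at core promoters. The sort by surface antigens selects against CD45, CD31 and SCA1, and thereby against haematopoietic, endothelial and fibro-adipogenic cells. The study measured sorted cells again and reports that they were largely but not fully pure. Each peak is annotated to a single gene, and broadly expressed genes such as Mcm7, Cbx3 and Cbx5 also lacked an annotated peak, so a gene without one need not have closed chromatin. None of the 8 haematopoietic markers had a core promoter peak, and Ptprc, Cd3e, Itgam and Laptm5 had no annotated peak, while Cd52, Spi1 and Csf1r had peaks elsewhere. Of 7 endothelial markers, Tek and Kdr had one, with summed values of 1320, 1147 and 1648 in control and 1782, 1802 and 1704 in Taf4a sKO libraries, and Tek was higher (0.40). Pecam1, Cdh5 and Cldn5 had peaks elsewhere but none at the core promoter, and Emcn and Tie1 had no annotated peak. Of 6 fibro-adipogenic markers, Dcn, Dpt and Cd34 had one, with sums of 1240, 1193 and 1443 against 1141, 1148 and 1045. Within this list Dcn was higher (0.83) and Dpt lower (-0.47), so its members were called in both directions, and Ly6a (SCA1, used for negative selection in the sort) had no annotated peak. Of 12 mural, Schwann and tenocyte markers 6 had one, with sums of 5563, 5312 and 6084 against 6434, 5929 and 6148, and Myh11 and Acta2 were higher (0.47 and 0.31). Of 7 myofibre markers Mylpf and Myh1 had one, with sums of 5411, 4725 and 6118 against 6417, 5699 and 5631, and neither was called (limma, 0 at an unadjusted p under 0.05).

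Of the 10 MuSC markers, 7 had a core promoter peak, and Vcam1 was higher (0.35) and Pax7 lower. Cdh15 (M-cadherin) was the densest with 2332 per kb, at a peak that did not reach its TSS. Tek, Myh11, Acta2, Vcam1 and Pax7 were not called in every scaling and every fit with a library left out. The summed values of the 7 MuSC marker promoters were 13533, 11382 and 13717 against 13102, 12265 and 12149. The densest promoters of 3 of the other lists were those of Tek with 1041 per kb among endothelial, Dpt with 1008 among fibro-adipogenic and Mylpf with 3318 among myofibre markers. In a bulk sample fewer cells with an open promoter and less opening per cell cannot be told apart, and the part of other cell types in the promoter changes was not tested.

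Sequence features that the rule did not use were compared between called and other promoters. The median GC content was 58.0% at promoters called higher, 62.3% at those called lower and 61.3% at those not called, so the called groups lay on either side of the rest. The CpG ratio, the number of CpG over that expected from the C and G content, was computed from 250 bases before to 50 after the TSS. Its median was 0.757 over all core promoters, 0.552 at those called higher, 0.662 at those called lower and 0.774 at those not called. In the quintile with the lowest CpG ratio, up to 0.529, 453 of 2116 promoters (21.4%) were higher and 177 (8.36%) lower, against 87 (4.12%) and 72 (3.41%) of 2112 in the quintile with the highest. The SD of the log2 fold change fell from 0.45 to 0.18 between these quintiles while the medians were 0.07 and 0.06. Over promoters of all values together, CpG-poor promoters thus spread more in both directions with a similar median. Of the 69 gained promoters 58 were in the lowest quintile, and of the 84 lost ones 43.

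Level and width were part of the same pattern. Under the authors' normalisation, 15.5% of promoters were higher and 16.1% lower in the quintile with the lowest values, up to 469. In the quintile with the highest values, above 2405, these shares were 3.6% and 0.473%. The median log2 fold change was -0.05 in the lowest and 0.09 in the highest, and with TMM -0.16 and -0.03, so that in the highest its sign depended on the scaling. Calls of strong promoters as lower also depended on it. Among the 5280 promoters at or above the median value, 33 were lower under the authors' normalisation and 858 with TMM. Since CpG-poor promoters were also weaker (medians of 506 in the lowest and 1797 in the highest CpG quintile), promoters in the upper 3 quintiles by value were looked at alone. There, 16.0% of the CpG-poor and 3.92% of the CpG-rich promoters were higher, and 2.75% and 0.785% lower. In the lower 2 quintiles by value the balance differed with CpG. Among CpG-poor promoters 23.5% were higher and 10.5% lower, and among CpG-rich ones 4.84% and 13.0%. Their median log2 fold changes were 0.06 for CpG-poor and -0.06 for CpG-rich promoters, and with TMM -0.05 and -0.17. The narrowest quintile, up to 841 bp, held 14.1% higher and 11.5% lower promoters, with 56 of the 69 gained and 62 of the 84 lost ones. These values are descriptions without a test, and with TMM the median log2 fold changes became -0.04 in the lowest and -0.05 in the highest CpG quintile.

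**Figure D5:**
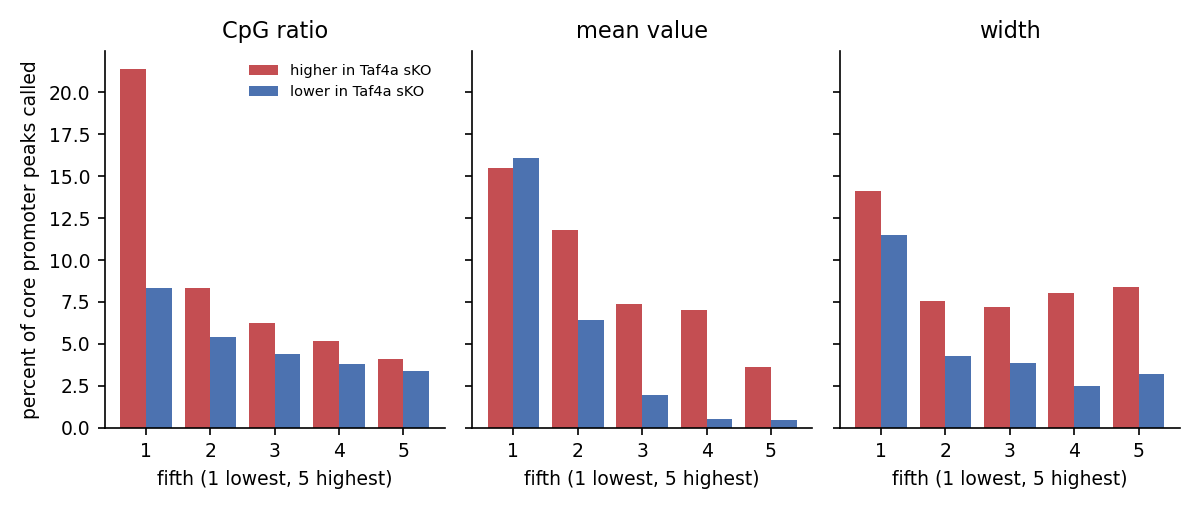
Percent of core promoters called higher or lower in Taf4a sKO MuSCs (limma, adjusted p under 0.05, authors' normalisation) in quintiles of the CpG ratio, the mean value and the peak width. Calls were most frequent in the lowest quintile of each, reaching 21.4% higher for the CpG ratio and 16.1% lower for the value.

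Several motifs were searched on both strands in the same 300 bases, and none contains another. CCAAT, the core of the NF-Y site, was found in 38.8% of all core promoters, in 36.9% of the higher and 24.6% of the lower ones. GGGCGG, the GC box bound by Sp factors, was found in 66.2%, 56.4% and 57.5%, and TATAAA, the TATA box, in 6.72%, 11.2% and 8.21%. TGANTCA, the AP-1 site, was found in 4.65% of all and 4.66% of the lower promoters, and of the 491 promoters that hold it 96 (19.6%) were higher, against 8.55% of those without it. CAGCTG, an E-box of myogenic factors, was present in 15.2%, 20.9% and 19.6%, and CACGTG, another E-box, in 10.5%, 8.46% and 8.02%.

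A further pair of motifs was added after the values had been seen. GGANTTTCC, which resembles the NF-kB site and marks Cxcl1 and Cxcl3 among the sequences shown, was found in 119 core promoters (1.13%), 24 of them higher (20.2%, against 8.94% of those without it) and 8 lower (6.72% against 5.06%), and TTCNNTTTC, which resembles the interferon-stimulated response element, in 6.85%, with 9.51% of the higher and 4.85% of the lower promoters. A match is a description of letters in this window, and how far it follows the CpG ratio was not tested.

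Promoters with a head-to-head partner were seldom called under the authors' normalisation. Such a partner is a protein-coding or long non-coding gene on the opposite strand that starts within 1000 bp upstream. Of 1216 such promoters 3.12% were higher and 2.47% lower, against 9.84% and 5.42% of the other 9341. Promoters with a partner were also stronger, with a median value of 1886 against 1237, and the part of the level in this difference was not tested. With TMM the median log2 fold change was -0.07 with and -0.05 without a partner.

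Other peaks of the same genes were called more often in the direction of the core promoter, as a description. Of the 957 genes with a higher core promoter, 524 had 930 further tested peaks, of which 47.4% were higher and 6.13% lower. Of the 535 genes with a lower one, 212 had 337 further peaks, of which 10.7% were higher and 34.7% lower. At genes whose core promoter was not called, 25% of 5466 further peaks were higher and 14% lower. The peaks come from the same libraries and, in part, adjoin the promoter peak, so they are no independent measurement.

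By chromosome, the share of higher core promoters lay between 5.28% on chromosome 14 and 11.9% on chromosome 13, and that of lower ones between 2.40% on chromosome X and 6.81% on chromosome 1. The median log2 fold change of each chromosome was between 0.04 and 0.08 under the authors' normalisation.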

How the data were processed

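Per the labels and the study's methods, the authors trimmed reads with Trimmomatic 0.39, aligned them with STAR 2.7.11b to mm10, removed duplicates with Picard 3.1.1 and multi-mapping reads, ran MACS on every library without input, unified the peaks over libraries, counted reads with featureCounts and scaled the counts for depth. A shift for Tn5 is not described. The deposited score of a peak is this scaled count rounded to a whole number, so it was not treated as a raw count. Low whole numbers were missing in 5 of 6 libraries at steps that fitted a multiplication of read counts by 1.3895, 1.0008 and 1.232 in control and 1.388, 1.3705 and 1.2905 in Taf4a sKO libraries, which gives their relative scale. Reads were not rebuilt from the rounded values. The labels number the replicates and do not say whether each is 1 animal.

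Alternatives were other scalings, minimum values, a pseudocount of 8, no moderation, a replicate block, other distances and thresholds, and leaving out each library. From these values limma 3.58.1 (R 4.3.3) was run with trend and robust moderation on log2(value + 1) for the 75384 peaks with a mean above 10, tested first on simulated data. Permutation tests used SciPy 1.17.1. Of the genes at core promoters, 99.97% were in GENCODE vM21, and 99.5% of these had the same TSS. Members, gene lists and tests were chosen with earlier results of these data known. Named promoters were Taf4, Kansl2 and Pax7, the 12 highest and 12 lowest log2 fold changes among promoters with a mean of at least 50, an adjusted p under 0.05 and separated genotypes, the 6 of each direction at or above the median value, the 5 widest, the 5 strongest, and up to 4 with the smallest p per list. The motifs GGANTTTCC and TTCNNTTTC were added after the data were seen. Peak coordinates are given as deposited. P-values measure the spread between these samples. Some single markers are not reported here.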

Additional observations from a re-analysis of the deposited data

How the results depend on the processing

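Of core promoters tested, 9.07% were higher and 5.08% lower under the authors' normalisation. The share of lower ones was 22.0% with TMM factors, 33.4% with total-value scaling and 35.3% with quantile normalization. Of all 75384 tested peaks, 16803, 19464 and 18897 were lower under these scalings, and 10476 under the authors' normalisation. Lower calls were clearly rarer at core promoters than over all tested peaks only under the authors' normalisation. Without trend and robust moderation 5.69% of core promoters were higher. With a single library left out, 5.79% to 26.9% were higher and 3.31% to 5.17% lower, 64 to 106 promoters were gained and 66 to 93 lost. At a 1.5-fold threshold 303 were gained and 244 lost. Deviations from the group means correlated at 0.11, -0.12 and -0.03 between same-numbered libraries of the genotypes, and at -0.12 to 0.15 between differently numbered ones. These values show no sign of pairing by replicate number, but so few libraries cannot exclude it. A replicate block gave 8.63% higher and 5.1% lower. Distance limits of 250 and 1000 bp, other minimum values and a pseudocount of 8 kept both shares within 1.5 times. The share and relative level of core promoter signal kept their direction in every alternative run. Of 1903 refits of 136 named promoters, 95 lost and 78 gained a call. In 2 the sign turned with a call, the promoter of Nfya with total-value scaling (-0.069) and the promoter of Zpbp2 with quantile normalization (-0.176), and the cause was not tested; the medians of 17 of 25 lists changed sign with TMM. The median standard error was 0.156 in the quintile of lowest values and 0.103 in the highest, so weak promoters were measured least precisely.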
